A study of Mus musculus with 24 samples.

Results

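Chemokine ligands were followed on 24 dual-colour microarrays of mouse T helper cells. The 6 genes, Ccl1, Ccl3, Ccl4, Ccl5, Xcl1 and Cxcl10, were chosen by name out of 20028 gene symbols on the array, and each was read by 1 probe (A_55_P1960386, A_51_P140710, A_51_P509573, A_52_P638459, A_51_P234956 and A_55_P2016462, in that order). Each array paired Cy3-labelled RNA of Th1 or Th2 cells, made in culture from naive cells of female C57BL/6 mice, with Cy5-labelled RNA of naive CD4+CD62L+CD25-CD44lo T cells from lymph nodes and spleens of such mice, and the dyes were never swapped. Of the arrays, 14 held Th1 and 10 held Th2 cells.

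Every treatment was measured in unstimulated and in reactivated cells, with 1 array for each condition. The vehicle was DMSO, and the drugs were JQ1, given at 50 and at 500 nM, and flavopiridol, given at 1 and at 10 µM. JQ1 displaces BET proteins from acetylated chromatin, and flavopiridol inhibits P-TEFb, the kinase that releases paused RNA polymerase II into elongation. Exposure was for 6 hr, with a second time point of 24 hr for Th1 cells under vehicle and under 500 nM JQ1. For the Th2 DMSO arrays the title (24 hr) and the source name (6 hr) disagree, so their time is unclear in every comparison that uses them. The stimulus used for reactivation is not stated in the labels of these arrays. The design text gives 1 biological replicate, so pairs of arrays that share a cell type, state or treatment stood in for replicates, and p-values measure the spread between such pairs, which may be technical. The comparisons ask how far expression of these genes depends on BET proteins and P-TEFb in the 2 T helper lineages.

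Chemokines are small secreted proteins that guide cells bearing the matching receptor. Ccl3, Ccl4 and Ccl5 attract T cells and monocytes and are made by T cells stimulated through the antigen receptor. Xcl1, or lymphotactin, attracts dendritic cells that carry Xcr1, and Ccl1 attracts cells that carry Ccr8, a receptor of Th2 and regulatory T cells. Cxcl10 is an interferon-inducible ligand of Cxcr3, the receptor by which Th1 cells reach inflamed tissue.

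Promoters are printed for Ccl1, Ccl3, Xcl1 and Cxcl10, the 4 of 6 ligands that matched the table of RefSeq promoters, since 5 of 6 ligands rose together on reactivation by Cy3. Ccl4 and Ccl5 did not match. Sequences are on GRCm38.p6, all on the minus strand, and show the 250 bases before the start, 5′ to 3′, at chr11:82179813-82180062 for Ccl1, chr11:83649379-83649628 for Ccl3, chr1:164935523-164935772 for Xcl1 and chr5:92348890-92349139 for Cxcl10. Capitals mark matches, on either strand, to GGGNNTTNC (NF-kB), TGANTCA (AP-1), GGTGTGA (T-box) or GAAANNGAA (IRF). The windows searched also took in 50 bases after the start.
Ccl1: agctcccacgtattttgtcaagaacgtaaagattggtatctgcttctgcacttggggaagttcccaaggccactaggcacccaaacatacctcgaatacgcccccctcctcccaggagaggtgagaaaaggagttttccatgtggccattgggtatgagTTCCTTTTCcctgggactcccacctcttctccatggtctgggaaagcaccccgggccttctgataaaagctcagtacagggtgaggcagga
Ccl3: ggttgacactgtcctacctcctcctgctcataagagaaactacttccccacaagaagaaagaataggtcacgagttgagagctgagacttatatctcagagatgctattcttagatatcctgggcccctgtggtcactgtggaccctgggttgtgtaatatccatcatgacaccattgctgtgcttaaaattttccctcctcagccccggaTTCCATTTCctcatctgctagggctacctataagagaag
Xcl1: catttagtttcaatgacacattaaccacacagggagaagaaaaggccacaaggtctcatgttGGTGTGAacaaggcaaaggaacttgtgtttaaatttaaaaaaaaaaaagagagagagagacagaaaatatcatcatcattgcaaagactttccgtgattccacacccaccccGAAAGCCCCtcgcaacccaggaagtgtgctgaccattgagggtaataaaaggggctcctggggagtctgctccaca
Cxcl10: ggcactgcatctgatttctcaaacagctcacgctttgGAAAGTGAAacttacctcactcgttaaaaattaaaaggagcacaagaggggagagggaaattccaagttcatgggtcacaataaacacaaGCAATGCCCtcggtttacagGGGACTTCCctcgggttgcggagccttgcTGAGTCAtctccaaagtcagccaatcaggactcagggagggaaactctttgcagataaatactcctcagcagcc
Cxcl10 held the NF-kB letters at 123 to 115 and at 103 to 95 bases before its start, the AP-1 letters at 74 to 68 and the IRF letters at 213 to 205. Xcl1 held the NF-kB letters at 76 to 68 and the T-box letters at 188 to 182. In Ccl1 and Ccl3 only the IRF letters were matched among these, at 91 to 83 and at 39 to 31. Among 32851 promoter windows of the same length, 15.2% held the NF-kB letters, 7.81% the AP-1 letters, 3.98% the T-box letters and 8.56% the IRF letters. The longer T-box form AGGTGTGAA (0.271% of windows) and TATAAA (13.6%) were matched in none of the 4 windows. The NFAT core GGAAA, which is in 61.3% of windows, was found in all 4 windows and is not capitalised, and it overlaps the IRF match in Ccl1, Ccl3 and Cxcl10. These matches are letters and were not tested for binding. On the same assembly Ccl3 and Ccl4 were next to each other on chromosome 11, Ccl5 lay next to Ccl9 on that chromosome, and Ccl1 was elsewhere on it.

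Quality and identity were checked over all arrays. Between 35.5 and 41.5% of probes were detected in Cy3 (well above background) on the 8 flavopiridol arrays, and 43.8 to 52% were on the other 16. All 5 T cell markers measured were above background on every array. Against Th2 cells, Th1 cells had all 6 genes of the Th1 list higher and 5 of 6 genes of the Th2 list lower by log2 ratio (adjusted p below 0.05, limma), where 28.7% of all genes were called, and 6 of 6 and 3 of 6 by Cy3, where 29.3% were. Among markers of other cells that make these ligands, Lyz2 (macrophages), Klrb1c (NK cells) and Xcr1 (dendritic cells) were above background on 0 of 24 arrays. Of the whole lists, 1 to 4 of 5 macrophage genes, 1 to 4 of 5 dendritic genes and 0 to 2 of 4 NK genes were above background on an array. Summed Cy3 of the macrophage list was 9.11 to 9.8 (log2) without flavopiridol and 10.5 to 11.52 with it, and that of the dendritic list was 15.45 to 16.12 without and 13.35 to 14.7 with it. That of the NK list was 8.12 to 9.1 in unstimulated and 9.42 to 10.9 in reactivated cells without flavopiridol, and 8.39 to 8.91 with it. Of these lists 2 of 2 NK genes and 2 of 4 dendritic genes tested were called higher in Th1 than in Th2 cells by both measures, with medians of 0.64 and 0.11 by Cy3. Of the 5 B cell genes, 1 to 5 were above background on an array, with a summed Cy3 between 9 and 12.23, and 4 of 5 were called lower in Th1 than in Th2 cells, with 500 nM JQ1 and with 10 µM flavopiridol, by both measures, where 28.7%, 47.5% and 49.0% of all genes were called by ratio. Of the 2 CD8 T cell genes, 0 to 2 were above background, with a summed Cy3 between 7.21 and 9.34. Both were called lower with 500 nM JQ1, and 1 of 2 was called higher with 10 µM flavopiridol and in Th1 cells. The T cell list itself was called lower for 5 of 5 genes on reactivation without drug (median -1.11 by Cy3, with 51.1% of all genes called), where its summed Cy3 was 16.55 to 16.91 unstimulated and 15.52 to 16.03 reactivated, and for 5 of 5 with 500 nM JQ1 (median -0.47, with 50.8% of all genes called). The part of all these lists in the results was not tested, and in bulk RNA fewer cells of a type and less RNA per cell cannot be told apart.

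The reference channel did not stay level for 5 of the 6 ligands. Cy5 of Ccl1, which should read the naive cells on every array, ran from 5.92 to 15.1 (log2) over the 24 arrays. Cy5 of Ccl3 ran from 5.53 to 12.83, that of Xcl1 from 5.79 to 10.56, that of Ccl4 from 5.39 to 9.11 and that of Ccl5 from 7.53 to 10.57. High Cy5 values came from arrays whose sample had high Cy3. The range was 9.18 for Ccl1, against a median of 0.37 over 13352 genes, of which 0.00749% had a range at least that wide. For Ccl3, Xcl1, Ccl4 and Ccl5 the ranges were 7.3, 4.77, 3.72 and 3.04, and 0.015%, 0.0899%, 0.15% and 0.225% of genes had ranges as wide. Cxcl10 stayed level in Cy5, between 5.85 and 6.42. The cause of the rise in Cy5 was not tested.

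**Figure D1:**
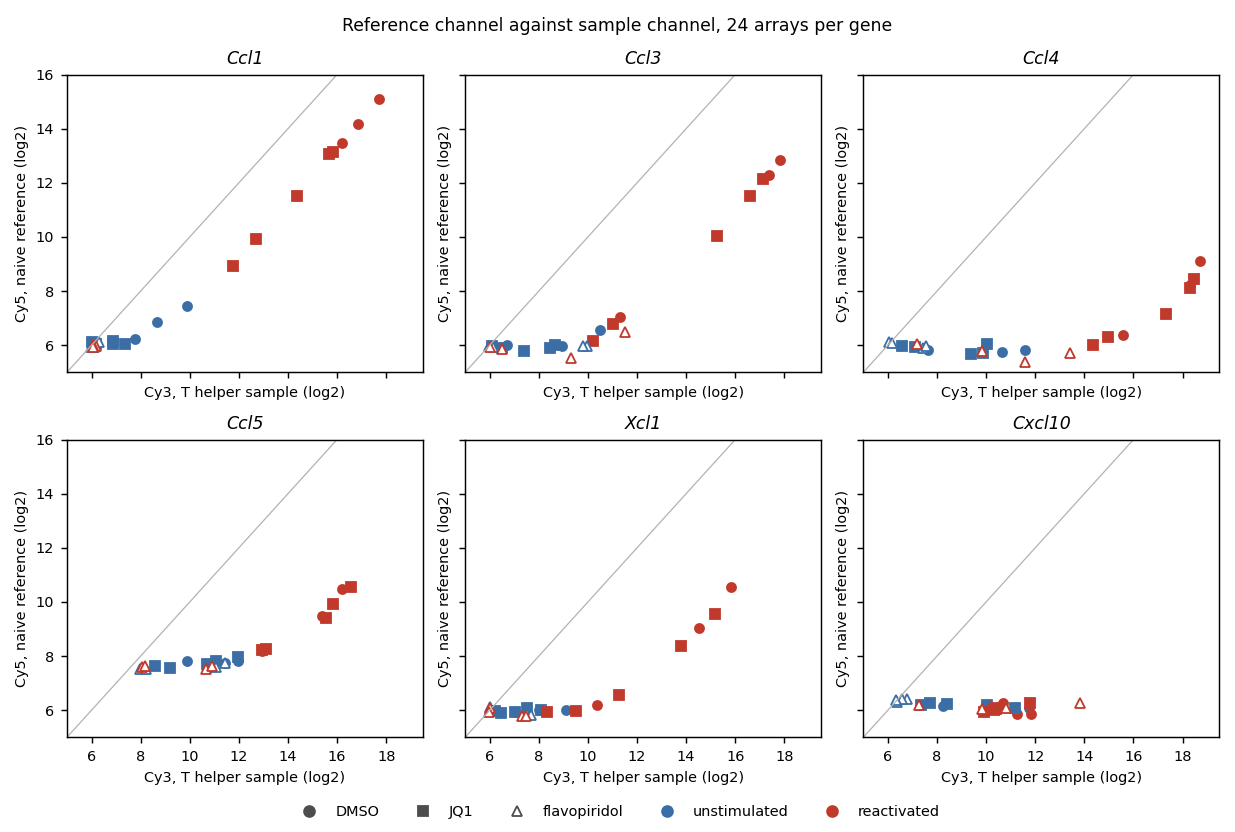
Normalised Cy5 intensity of the naive reference (vertical axis, log2) against normalised Cy3 intensity of the T helper sample (horizontal axis, log2) for each ligand, 1 point per array, with a line where both are equal. Cy5 of Ccl1 climbs from 5.92 to 15.1 along with Cy3, while Cy5 of Cxcl10 stays between 5.85 and 6.42.

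On reactivation without drug the ratio of Cy3 over Cy5 changed less than Cy3 for Ccl1, Ccl3, Xcl1, Ccl4 and Ccl5, so tests of the ligands are given by both, in log2. The authors' deposited log2 ratios of these 5 genes followed Cy3. After subtracting each other, deposited value and Cy3 of Ccl1 left an SD over arrays of 0.72, while deposited value and the ratio recomputed here left 2.87. For Ccl3 these SDs were 0.44 and 2.26, for Ccl4 0.13 and 1.03, for Ccl5 0.08 and 0.95 and for Xcl1 0.15 and 1.4. The median gene of 12926 had 0.07 and 0.08, and Cxcl10 had 0.18 and 0.12. A value of 0 in the deposited table is thus not the level of the naive channel of the same array for these 5 ligands.

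By log2 ratio unstimulated T helper cells held more of every ligand than the naive reference. On the 3 unstimulated DMSO arrays (Th1 at 6 hr, Th1 at 24 hr, Th2) the log2 ratio of Ccl4 was 4.9, 5.78 and 1.8, and that of Cxcl10 was 5.64, 4.43 and 2.11. The ratio of Ccl5 was 3.67, 4.16 and 2.09, and that of Ccl3 was 2.97, 3.92 and 0.69. For both pairs the Th2 array was the lowest. Xcl1 read 2, 3.1 and 1.08, and Ccl1 read 1.53, 2.45 and 1.83, where the Th2 array lay between the Th1 arrays. Against 0, all 6 ligands were called higher (limma, 3 arrays, adjusted p below 0.05 over 11770 genes), where 53.6% of all genes were called. The mean was 4.06 ± 0.64 for Cxcl10 (SE, adjusted p = 0.00479), 3.31 ± 0.4 for Ccl5 (0.0021) and 1.94 ± 0.2 for Ccl1 (0.00127), whose Cy5 was above background on all 3 arrays. Cy5 of Ccl4 and Xcl1 was not well above background on any of them. The mean over the 3 arrays was thus at least 17.1-fold higher than the naive channel for Ccl4 and at least 4.18-fold for Xcl1. These bounds set the mean Cy3 against the lowest Cy5 signal well above background, or the Cy5 of the gene where that was higher. They do not hold for each array, since the Th2 ratios of 1.8 and 1.08 lie below their log2 values of 4.09 and 2.06. The fitted mean ratios were 4.16 ± 0.74 for Ccl4 (adjusted p = 0.00718) and 2.06 ± 0.37 for Xcl1 (0.00733). Ccl3, with Cy5 measured on 1 of 3 arrays (Th1 at 24 hr), had a fitted mean of 2.53 ± 0.59 (0.0174), which depends on the background correction on the other arrays. In the deposited table the mean of Ccl1 was -1.5 (adjusted p = 0.0286) and that of Ccl3 was 0.51 (0.563), and without the filter on dim probes Ccl3 was not called either (0.0531). The test leaves out the spread of the naive cells, because no separate naive sample was hybridised.

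By Cy3, reactivation without drug raised Ccl1, Ccl3, Ccl4, Ccl5 and Xcl1 in Th1 and in Th2 cells, and Cxcl10 moved less. Cy3 of Ccl1 went from 7.78 to 16.2 in Th1 cells at 6 hr, from 9.89 to 17.7 in Th1 cells at 24 hr and from 8.68 to 16.84 in Th2 cells. Cy3 of Ccl4 went from 10.64 to 18.3, from 11.6 to 18.73 and from 7.62 to 15.56. The rise within a pair was 224-fold to 343-fold for Ccl1 and 140-fold to 244-fold for Ccl4.

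Ccl3, the neighbour of Ccl4, had Cy3 of 8.93 and 17.36 in Th1 cells at 6 hr, 10.49 and 17.82 at 24 hr, and 6.7 and 11.32 in Th2 cells. Xcl1 had 8.02 and 14.51, 9.1 and 15.84, and 7.01 and 10.36. Both reached higher values in reactivated Th1 than in reactivated Th2 cells, with folds of 346, 160 and 24.7 for Ccl3 and a fold of 10.2 for Xcl1 in Th2 cells against 90 in Th1 cells at 6 hr. Cy3 of Ccl5 was 11.42 and 15.37, 11.97 and 16.19, and 9.89 and 12.93. Cxcl10 stood apart, with 11.73 and 11.81 in Th1 cells at 6 hr, 10.64 and 11.24 at 24 hr and 8.26 and 10.7 in Th2 cells. Its unstimulated Th1 array at 6 hr was above both other reactivated arrays, so the states overlapped.

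**Figure D2:**
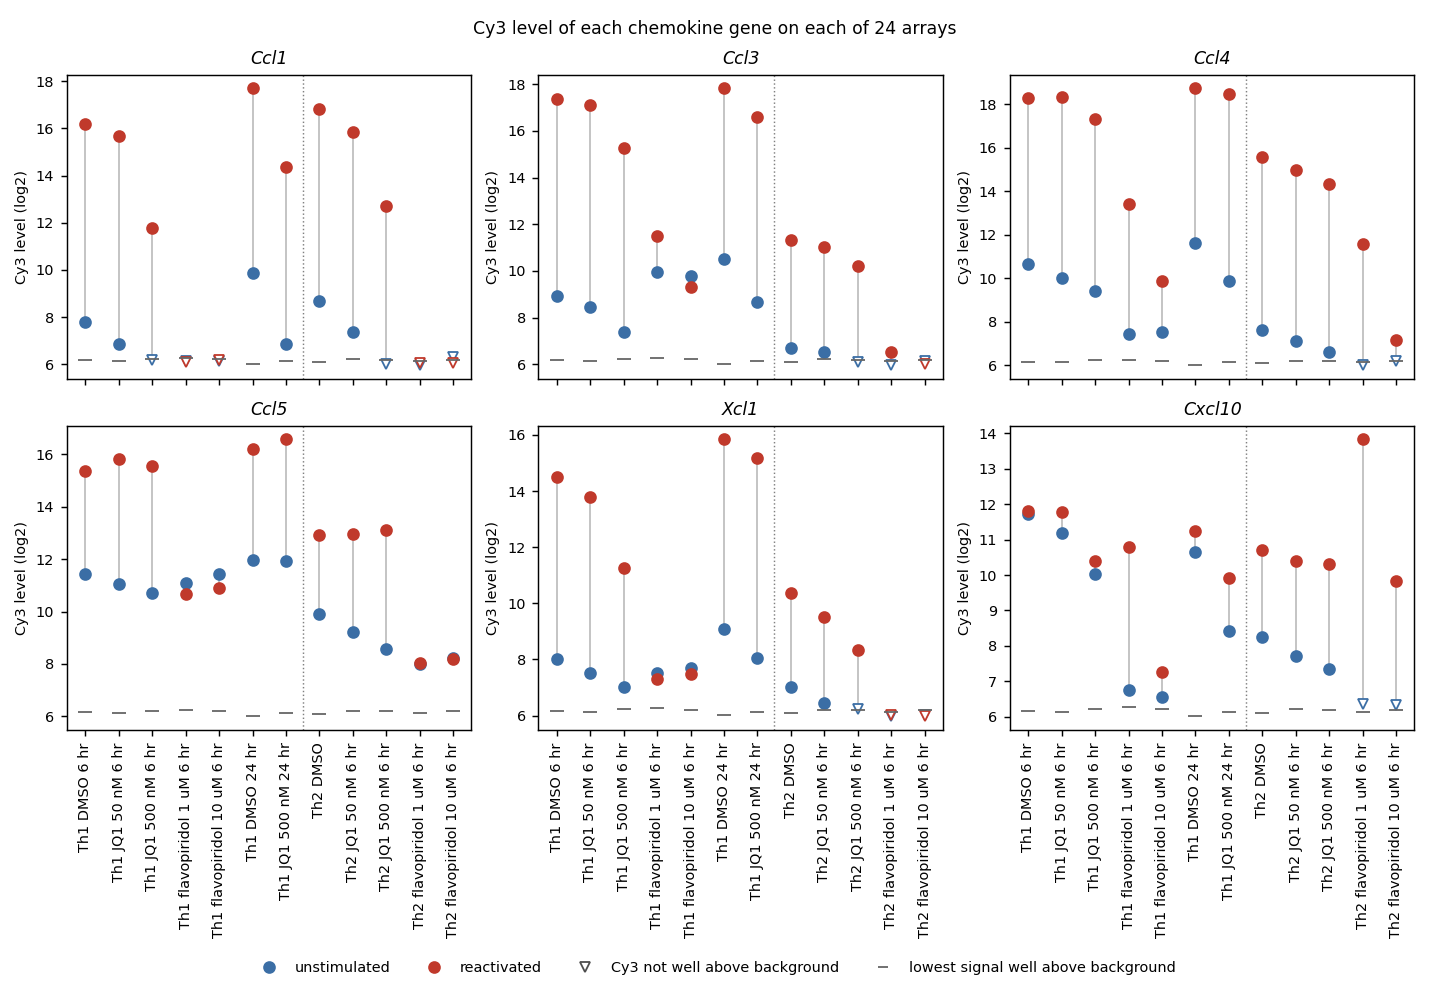
Normalised Cy3 intensity (log2, vertical axis) of each ligand on each of the 24 arrays, with unstimulated (blue) and reactivated (red) cells of 1 treatment joined by a line open triangles for spots not well above background and short grey dashes for the lowest signal well above background. Ccl1 spans 5.98 to 17.7 and is at background on all flavopiridol arrays, whereas Cxcl10 has its highest value, 13.83, in reactivated Th2 cells with 1 µM flavopiridol.

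Over the 3 pairs, 5 of 6 ligands were called higher by Cy3 (limma with pair as block, 12538 genes), where 51.1% of all genes were called in either direction. The change was 8.13 ± 0.15 for Ccl1 (SE, adjusted p = 0.000134), 7.57 ± 0.18 for Ccl4 (0.000226), 6.79 ± 0.71 for Ccl3 (0.00175), 5.53 ± 0.68 for Xcl1 (0.00267) and 3.73 ± 0.24 for Ccl5 (0.000847). That of Cxcl10 was 1.04 ± 0.45 and not called (adjusted p = 0.112). By log2 ratio all 6 were called higher, where 50.9% of genes were called, with smaller changes. These were 5.48 ± 0.6 for Ccl4 (adjusted p = 0.00082), 2.91 ± 0.25 for Xcl1 (0.000399), 2.25 ± 0.43 for Ccl3 (0.00612), 2.13 ± 0.22 for Ccl5 (0.000666), 1.2 ± 0.36 for Cxcl10 (0.0312) and 0.72 ± 0.21 for Ccl1 (0.0291). The ratio of Ccl1 was 2.74, 2.6 and 2.64 on the reactivated arrays while its Cy5 reached 13.46, 15.1 and 14.19. Without the Th1 pair at 6 hr the ratio change of Ccl1 was 0.48 (adjusted p = 0.131), without the Th2 pair 0.67 (0.0692), and without the Th1 pair at 24 hr that of Cxcl10 was 1.33 (0.0553). The call of Ccl1 was also lost with median centring (0.31, 0.153), without background correction (0.44, 0.0998) and with the scanner software's ratio (0.12, 0.544). That ratio lost Ccl3 (0.54, 0.143) and Xcl1 (0.85, 0.2) too. Without the filter on dim probes Ccl1 (0.0545) and Cxcl10 (0.0713) were not called. Cxcl10 was not called in the deposited table (1.28, 0.0585) or without blocks (1.2, 0.306) either.

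**Figure D3:**
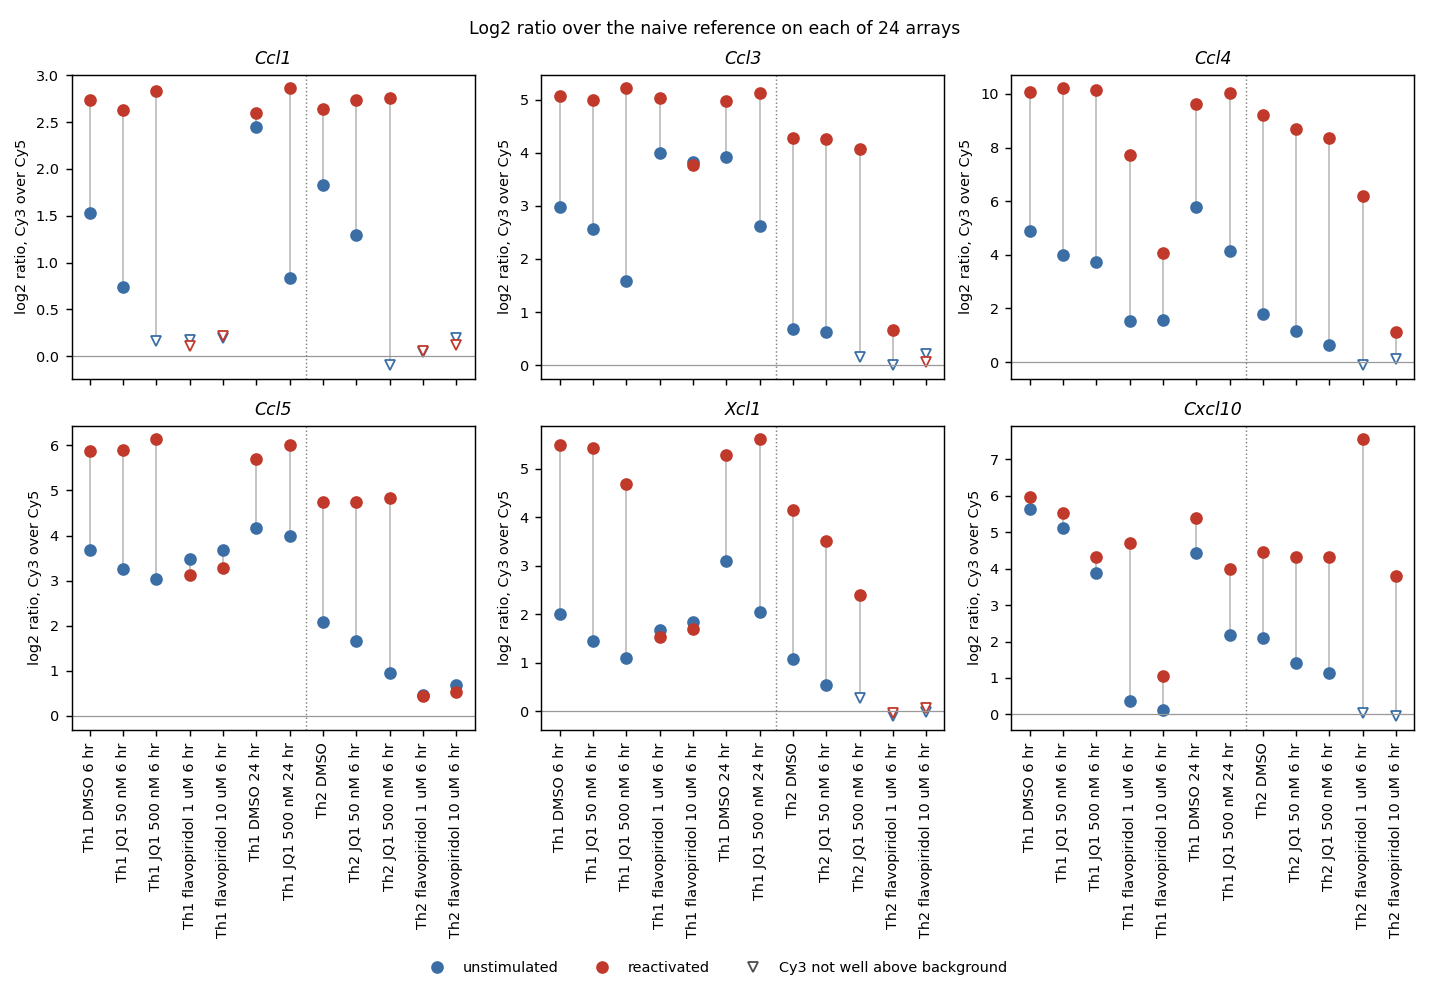
Log2 ratio of the T helper channel over the naive channel for each ligand on each of the 24 arrays, with blue for unstimulated, red for reactivated and open triangles for Cy3 not well above background. The ratio of Ccl1 levels off between 2.6 and 2.86 on every reactivated array without flavopiridol, while that of Ccl4 reaches 10.21.

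Without flavopiridol Th1 cells held more Ccl3, Ccl4, Ccl5, Xcl1 and Cxcl10 than Th2 cells, and Ccl1 differed little between the lineages. With DMSO the Cy3 of Ccl4 was 10.64 in unstimulated Th1 and 7.62 in unstimulated Th2 cells, and 18.3 and 15.56 after reactivation. With 50 nM JQ1 it was 10.03 and 7.09, then 18.31 and 14.97, and with 500 nM it was 9.4 and 6.59, then 17.32 and 14.35. In all 6 of these conditions the Th1 array was higher, by a near-constant amount. Cy3 of Ccl3 with DMSO was 8.93 in unstimulated Th1 against 6.7 in Th2 cells, and 17.36 against 11.32 once reactivated, so the gap widened.

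Over 6 conditions (DMSO, 50 and 500 nM JQ1 at 6 hr, 2 states, with the Th2 DMSO time unclear), all 6 ligands were called by Cy3 and 5 of 6 by ratio, where 29.3% and 28.7% of 12918 genes were called. By Cy3, Th1 cells were higher by 3.78 ± 0.7 for Ccl3 (adjusted p = 0.00591), 2.97 ± 0.08 for Ccl4 (6.13e-07), 2.38 ± 0.52 for Xcl1 (0.0115), 2.21 ± 0.16 for Ccl5 (8.91e-05) and 2.04 ± 0.45 for Cxcl10 (0.0118). Ccl1 was 0.49 ± 0.15 lower (adjusted p = 0.0364, a change of -0.49). By ratio the values were 1.39 ± 0.2 for Ccl3 (adjusted p = 0.00183), 2.21 ± 0.3 for Ccl4 (0.00127), 1.37 ± 0.2 for Xcl1 (0.00181), 1.47 ± 0.13 for Ccl5 (0.000174), 2.11 ± 0.46 for Cxcl10 (0.0108) and -0.09 ± 0.11 for Ccl1 (0.573). The DMSO arrays of both lineages shared a slide, but in the 4 JQ1 pairs Th1 and Th2 arrays lay on different slides, so there lineage and slide cannot be told apart. Within the shared slide, Th1 minus Th2 Cy3 was 2.23 unstimulated and 6.04 reactivated for Ccl3, 3.01 and 2.74 for Ccl4, 1.53 and 2.44 for Ccl5, 1 and 4.15 for Xcl1, 3.47 and 1.11 for Cxcl10 and -0.9 and -0.64 for Ccl1, the same directions as over all 6 conditions. Without the DMSO pairs the ratio of Cxcl10 gave 1.91 (adjusted p = 0.0648). With the flavopiridol pairs included, 10 in all, it gave 0.76 (0.36). On the reactivated flavopiridol arrays Th2 cells held more Cxcl10 than Th1 cells (Cy3 of 13.83 against 10.79 at 1 µM, and 9.84 against 7.27 at 10 µM).

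Whether the lineage difference depended on reactivation had a different answer in each channel. By Cy3, 4 of 6 ligands were called, where 19.1% of genes were. The Th1 excess was larger after reactivation for Ccl3 (by 3.9 ± 0.31, adjusted p = 0.000187), Xcl1 (2.83 ± 0.31, 0.000865) and Ccl5 (0.75 ± 0.18, 0.0217), and smaller for Cxcl10 (-2.36 ± 0.33, 0.0023). That of Ccl4 changed by 0.1 ± 0.16 (0.702). By ratio 5 of 6 were called, where 20.0% of genes were. Xcl1 kept its sign (0.96 ± 0.21, adjusted p = 0.0125), as did Cxcl10 (-2.41 ± 0.37, 0.00219), but Ccl3 read -1 ± 0.21 (0.0093), Ccl4 -1.59 ± 0.21 (0.00118) and Ccl5 -0.56 ± 0.16 (0.0312). In Cxcl10 Cy3 of Th2 cells came close to that of Th1 cells only when reactivated, 10.32 against 10.39 with 500 nM JQ1.

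Th1 cells at 24 hr had higher Cy3 of 5 ligands than at 6 hr and lower Cxcl10. All 6 were called by Cy3 over 4 pairs (12537 genes, 10.3% called), and 1 of 6, Cxcl10, by ratio (5.07% called). The Cy3 change was 1.84 ± 0.45 for Xcl1 (adjusted p = 0.0445), 1.73 ± 0.28 for Ccl1 (0.0234), 1.16 ± 0.18 for Ccl3 (0.0231), 0.91 ± 0.13 for Ccl5 (0.0206), 0.76 ± 0.14 for Ccl4 (0.0295) and -0.94 ± 0.19 for Cxcl10 (0.0316). The ratio of Cxcl10 changed by -0.95 ± 0.2 (0.0414), and those of Xcl1 (0.69 ± 0.2, 0.0802), Ccl3 (0.45 ± 0.21, 0.221), Ccl1 (0.37 ± 0.18, 0.232), Ccl5 (0.29 ± 0.19, 0.365) and Ccl4 (0.17 ± 0.2, 0.634) were not called. The 24 hr arrays lay on another slide than the 6 hr arrays, so time and slide cannot be told apart. Leaving out 1 pair left 0 to 5 ligands called by Cy3, with 0 called without the unstimulated DMSO pair and 1 without either JQ1 pair. By ratio 0 were called without any 1 of those 3 pairs, and 2 without the reactivated DMSO pair. The shares of all genes called in these reduced fits are not given.

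JQ1 at 500 nM lowered 5 of the 6 ligands by Cy3, Ccl1 by most and Ccl5 not beyond its spread. Cy3 of Ccl1 in reactivated cells was 16.2 with DMSO, 15.69 with 50 nM and 11.76 with 500 nM JQ1 in Th1 cells, and 16.84, 15.85 and 12.7 in Th2 cells. In unstimulated cells with 500 nM for 6 hr it was not well above background in either lineage, at least 2.93-fold lower than with DMSO in Th1 and at least 5.67-fold lower in Th2 cells. Ccl1 was thus lowered mostly at the higher dose. Even so, reactivated cells with 500 nM JQ1 for 6 hr still held at least 46.3-fold (Th1) and 92.1-fold (Th2) more Ccl1 than unstimulated ones.

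Cy3 of Xcl1 in reactivated Th1 cells was 14.51, 13.8 and 11.25 with DMSO, 50 and 500 nM, and in reactivated Th2 cells 10.36, 9.5 and 8.32. Cy3 of Ccl3 was 17.36, 17.12 and 15.25 in reactivated Th1 cells and 11.32, 11.03 and 10.21 in reactivated Th2 cells. Both series ran downwards with dose. At 24 hr the falls at 500 nM in reactivated Th1 cells were smaller, from 15.84 to 15.17 for Xcl1 (-0.67, against -3.26 at 6 hr), from 17.82 to 16.61 for Ccl3 (-1.2, against -2.11), from 17.7 to 14.36 for Ccl1 (-3.34, against -4.44) and from 18.73 to 18.48 for Ccl4 (-0.25, against -0.98). In unstimulated Th1 cells the falls at 24 hr were larger than at 6 hr for Ccl3 (-1.85 against -1.54), Ccl4 (-1.73 against -1.24) and Cxcl10 (-2.23 against -1.68). There Xcl1 gave -1.03 against -0.98 and Ccl5 -0.02 against -0.7, and Ccl1 went from 9.89 to 6.88 at 24 hr, above background on both arrays. These differences between the times were not tested. Cxcl10 in unstimulated cells had 11.73, 11.18 and 10.04 in Th1 and 8.26, 7.7 and 7.35 in Th2 cells. Ccl5 in reactivated cells did not follow, with 15.37, 15.83 and 15.54 in Th1 and 12.93, 12.96 and 13.1 in Th2 cells.

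At 500 nM against DMSO (4 contexts of cell type and state, 12 arrays, 12918 genes) 5 of 6 ligands were called lower by Cy3, where 50.8% of genes were called. The change was -3.2 ± 0.46 for Ccl1 (adjusted p = 0.000355), -1.77 ± 0.35 for Xcl1 (0.00232), -1.34 ± 0.21 for Ccl3 (0.000562), -1.11 ± 0.1 for Ccl4 (2.69e-05), -1.1 ± 0.21 for Cxcl10 (0.0017) and -0.42 ± 0.22 for Ccl5 (0.133). By ratio 3 of 6 were called lower, where 47.5% of genes were. These were Cxcl10 (-1.12 ± 0.23, adjusted p = 0.00247), Xcl1 (-1.07 ± 0.16, 0.000359) and Ccl4 (-0.78 ± 0.18, 0.00451). Ccl1 (-0.77 ± 0.29, 0.0528), Ccl3 (-0.5 ± 0.19, 0.0545) and Ccl5 (-0.36 ± 0.19, 0.144) were not. The Th2 JQ1 arrays lay on another slide than the Th2 DMSO arrays, so in Th2 cells drug and slide cannot be told apart. Among Th1 pairs that shared a slide, 5 ligands were called by Cy3, where 34.3% of 12537 genes were, and 1 by ratio (Cxcl10, -1.76, adjusted p = 0.000323), where 34.1% were. The 50 nM dose gave 0 calls among the ligands in limma by either measure, where 0.302% of genes were called by ratio and 0.395% by Cy3, with 2 members at an unadjusted p below 0.05 by ratio and 1 by Cy3.

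The difference between states in the effect of 500 nM JQ1 was called for Ccl1, Xcl1 and Ccl5 by Cy3 (3 of 6, with 9.03% of genes). The effect in reactivated minus that in unstimulated cells was -2.17 ± 0.33 for Ccl1 (adjusted p = 0.00684) and -1.76 ± 0.38 for Xcl1 (0.025). Ccl1 with 500 nM for 6 hr was at background in unstimulated cells of both lineages, and Xcl1 and Ccl3 in those of Th2 cells, so their fall there is only a lower bound and the size of these differences rests on dim values. For Ccl5, above background on every array, it was 1.17 ± 0.22 (0.0157), with unstimulated Cy3 at 11.42 and 10.72 in Th1 and 9.89 and 8.58 in Th2 cells for DMSO and 500 nM. Leaving out 1 context left 2 ligands called by Cy3, or 1 without the unstimulated Th2 context. By ratio 3 of 6 were called, where 10.1% of genes were, Ccl1 with the opposite sign (1.75 ± 0.23, 0.00291, but 0.56 and adjusted p = 0.216 when arrays were shifted by their spike-in probes), Ccl3 (0.92 ± 0.25, 0.0479, but -0.27 when so shifted) and Ccl5 (1.07 ± 0.19, 0.0106, but -0.13 when so shifted). After that shift the 1 call left was Xcl1 (-1.62, adjusted p = 0.0018), and the median of all genes moved from -0.01 to -1.2. Between Th1 and Th2 cells the JQ1 effect was called different for 0 of 6 ligands by both measures in limma. Over all genes 0% were called by both, and 1 member by ratio and 2 by Cy3 had an unadjusted p below 0.05.

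Under 500 nM JQ1 the ligands still rose on reactivation. In Th1 cells at 24 hr Cy3 went from 6.88 to 14.36 for Ccl1, from 8.65 to 16.61 for Ccl3, from 9.87 to 18.48 for Ccl4, from 11.95 to 16.57 for Ccl5, from 8.07 to 15.17 for Xcl1 and from 8.41 to 9.92 for Cxcl10. The other pairs gave smaller values for some ligands. In Th1 cells at 6 hr the change in Cy3 was 4.21 for Xcl1 and 0.34 for Cxcl10, against 7.1 and 1.51 at 24 hr, and the ratio change of Cxcl10 was 0.46, or -0.92 with the spike-in shift. In Th2 cells Xcl1 was at least 4.28-fold higher from background (a Cy3 difference of 2.1) and Cxcl10 differed by 2.96. All 6 were called higher over 3 pairs by Cy3 and by ratio, where 46.0% and 46.1% of 12141 genes were called. The Cy3 change was 8.09 ± 0.18 for Ccl4 (adjusted p = 0.000133), 6.64 ± 0.75 for Ccl3 (0.00162), 6.57 ± 0.34 for Ccl1 (0.000396), 4.65 ± 0.12 for Ccl5 (0.000133), 4.47 ± 0.85 for Xcl1 (0.0084) and 1.6 ± 0.45 for Cxcl10 (0.0317). Ccl1 was at background on 2 of the 3 unstimulated arrays and Ccl3 and Xcl1 on the Th2 one, so their sizes rest in part on dim values. By ratio it was 6.67 ± 0.33, 3.34 ± 0.27, 2.51 ± 0.18, 3 ± 0.33, 3.09 ± 0.29 and 1.82 ± 0.46 in the same order of genes, with adjusted p of 0.0184 for Cxcl10 and below that for the others. The ratio call of Cxcl10 was lost with the spike-in shift (1.37, adjusted p = 0.105). Those of Ccl1 (1.49, 0.122) and Ccl3 (1.46, 0.244) were lost with the scanner software's ratio. The changes of this fit and of the DMSO fit come from separate arrays and were set side by side only.

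**Figure D4:**
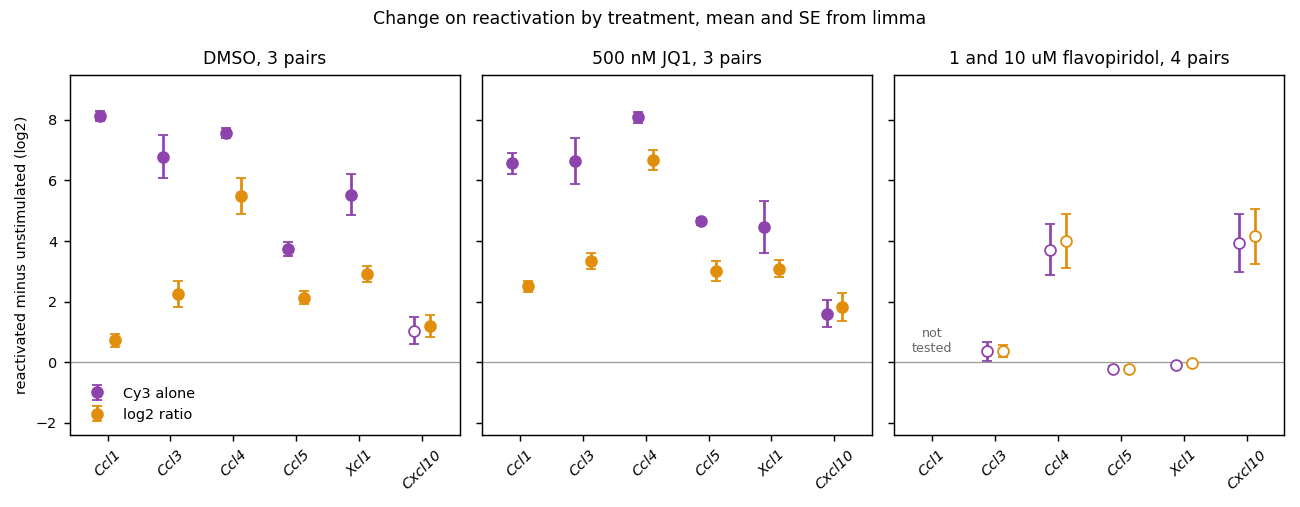
Change on reactivation (reactivated minus unstimulated, log2, mean and SE from limma) of each ligand with DMSO, 500 nM JQ1 and flavopiridol, by Cy3 alone (purple) and by ratio (orange), filled where the adjusted p is below 0.05. Ccl5, above background on every array, rises by 3.73 with DMSO and 4.65 with JQ1 in Cy3, the JQ1 values of Ccl1, Ccl3 and Xcl1 rest in part on spots at background, and no ligand is filled with flavopiridol, where Ccl1 was not tested.

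Flavopiridol took Ccl1 to background on all 8 of its arrays. Cy3 of Ccl1 there was between 5.98 and 6.32 and not well above background, whether or not the cells had been reactivated. In reactivated Th1 cells it was at least 981-fold lower than with DMSO at 1 µM and at least 1020-fold lower at 10 µM. In reactivated Th2 cells it was at least 1660-fold and 1600-fold lower. All flavopiridol arrays lay on other slides than their DMSO controls, so within a context drug and slide cannot be told apart.

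Ccl5 and Xcl1 stood near their unstimulated level in Th1 cells and were no higher once reactivated. Cy3 of Ccl5 in Th1 cells was 11.08 unstimulated and 10.66 reactivated with 1 µM, and 11.42 and 10.91 with 10 µM, against 11.42 and 15.37 with DMSO. In Th2 cells it was 7.99 and 8.04, then 8.21 and 8.18, against 9.89 and 12.93. Cy3 of Xcl1 in Th1 cells was 7.53 and 7.31, then 7.68 and 7.49, against 8.02 and 14.51, and in Th2 cells it was at background on all 4 arrays. Reactivated and unstimulated arrays thus lay within 0.51 of each other for Ccl5 under the drug.

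Ccl3 had higher values under flavopiridol at both doses in unstimulated Th1 cells. Its Cy3 was 9.97 with 1 µM and 9.8 with 10 µM against 8.93 with DMSO, and its ratio was 4 and 3.82 against 2.97. With the spike-in shift the ratio was 4.28 and 3.77 against 3.24. Each value comes from 1 array, and the share of all genes that rose as much in unstimulated cells was not counted. After reactivation Cy3 was 11.5 and 9.3, below 17.36 with DMSO. In Th2 cells Ccl3 was above background on 1 of 4 flavopiridol arrays, the reactivated one at 1 µM (6.51, against 11.32 with DMSO).

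**Figure D5:**
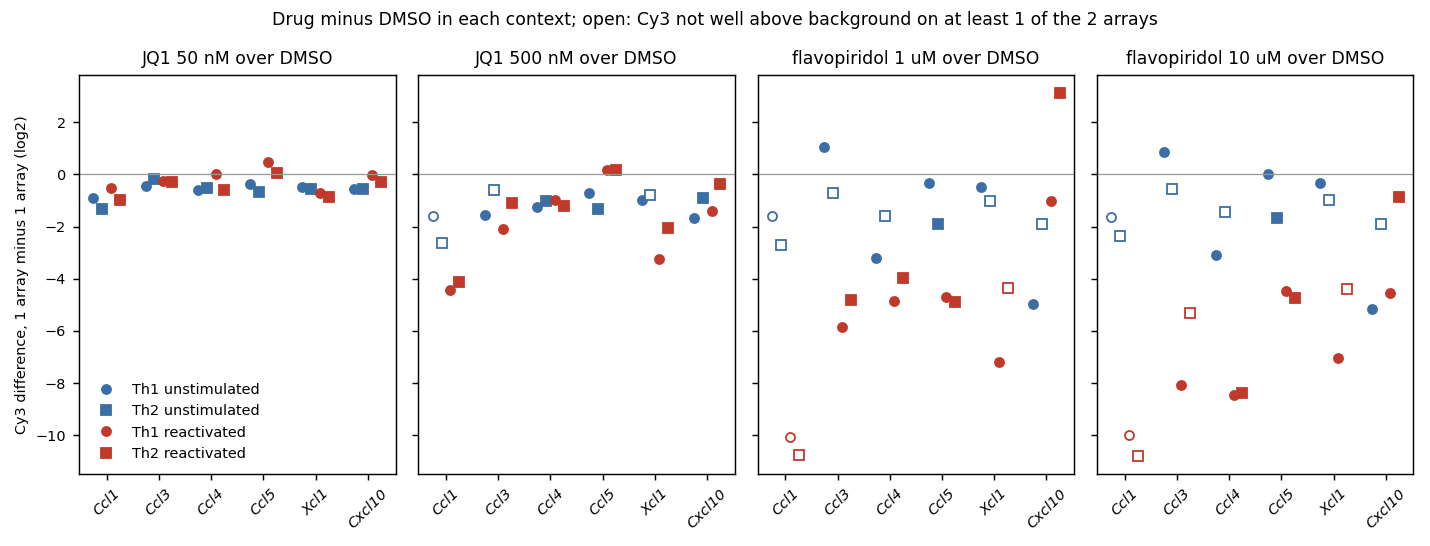
Difference in Cy3 (log2) between 1 drug array and its DMSO array for each ligand, by drug and dose, in Th1 (circles) and Th2 (squares), unstimulated (blue) and reactivated (red), with open symbols where either array was not well above background. Differences with 50 nM JQ1 lie between -1.32 and 0.46, and Cxcl10 in reactivated Th2 cells with 1 µM flavopiridol is at 3.13.

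At 10 µM against DMSO (4 contexts, 12 arrays, 12435 genes) 5 of 6 ligands were called lower by both measures, where 50.0% of genes were called by Cy3 and 49.0% by ratio. Ccl1 is among the 5, but it passed the filter only through its 4 DMSO arrays, so its calls are not set against those shares. All genes had a median change of -0.19 and -0.22. The Cy3 change was -5.34 ± 1.11 for Ccl4 (adjusted p = 0.00431), -3.18 ± 1.08 for Xcl1 (0.0371), -3.12 ± 1.09 for Cxcl10 (0.0414) and -2.72 ± 0.78 for Ccl5 (0.0189). For Ccl1 the fit gave -6.2 ± 1.66 (0.0142), which is no bound because all its drug arrays were at background. The sizes for Xcl1, at background on both Th2 arrays at 10 µM, and for Ccl4 and Cxcl10, at background on the unstimulated one, rest in part on dim values too. Ccl3 was not called (-3.27 ± 1.31, 0.0678). By ratio the changes were -4.78 ± 0.95 for Ccl4 (adjusted p = 0.00331), -3.3 ± 1.11 for Cxcl10 (0.0363), -2.29 ± 0.67 for Xcl1 (0.0208), -2.06 ± 0.61 for Ccl5 (0.0211), -2 ± 0.23 for Ccl1 (0.000219) and -1.29 ± 0.72 for Ccl3 (0.171). With slide as a random block 2 ligands stayed called by ratio, Ccl1 and Ccl4, and 1 by Cy3. On the drug arrays Ccl1 was not well above background in Cy3 or in Cy5, so its ratio value and calls give no size of a drug effect. Leaving out the reactivated Th1 or the reactivated Th2 context left 1 or 2 called by Cy3 and 2 or 3 by ratio.

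The difference between states in the effect of 10 µM flavopiridol was called for 5 of 6 ligands by Cy3 (15.3% of genes called). The calls of Ccl1, Ccl3 and Xcl1 are not set against that share, because drug arrays of these genes were at background. For Ccl5, above background on every array, the effect in reactivated minus that in unstimulated cells was -3.76 ± 0.54 (adjusted p = 0.00796). That of Ccl4 was -6.15 ± 0.6 (0.00302), with the unstimulated Th2 drug array at background. The fit gave -6.84 ± 0.92 for Ccl3 (0.00682) and -5.03 ± 0.89 for Xcl1 (0.0145), whose Th2 drug arrays were at background in both states, and -8.39 ± 0.41 for Ccl1 (0.000904), whose drug arrays all were. With its drug arrays level at background, the value of Ccl1 restates its rise on reactivation with DMSO, and those of Ccl1, Ccl3 and Xcl1 are neither sizes nor bounds of a drug effect. Cxcl10 gave 0.85 ± 1.58 (0.781). By ratio 4 of 6 were called, where 15.9% of genes were, namely Ccl4 (-4.54 ± 0.76, adjusted p = 0.0105), Xcl1 (-3.31 ± 0.35, 0.00311), Ccl5 (-2.7 ± 0.67, 0.0362) and Ccl1 (-1.05 ± 0.22, 0.0228). The ratio values of Xcl1 and Ccl1 rest on the same drug arrays at background. Without the unstimulated Th2 context 0 were called by either measure. That fit leaves 1 context of unstimulated cells, and its ratio values were -3.72 for Ccl4, -3.78 for Xcl1, -3.41 for Ccl5 and -1.19 for Ccl1. The share of all genes called in it is not given. Without the unstimulated Th1 context 2 were called by Cy3 and 1 by ratio, and without the reactivated Th2 context 4 and 1. Between Th1 and Th2 cells the effect was called different for 0 of 6 ligands by limma, none of them at an unadjusted p below 0.05, where 0.0161% of genes were called by ratio and 0.0241% by Cy3.

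Ccl4 and Cxcl10 still had higher values on reactivation in the presence of flavopiridol. Cy3 of Ccl4 went from 7.44 to 13.43 in Th1 cells with 1 µM and from 7.54 to 9.85 with 10 µM. In Th2 cells it went from background to 11.58 with 1 µM, at least 47-fold, and to 7.17 with 10 µM. The reactivated values stayed below those with DMSO (18.3 and 15.56) in every case.

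Cxcl10 was the exception among the reactivated arrays. In Th2 cells its Cy3 went from background to 13.83 with 1 µM, at least 177-fold, and to 9.84 with 10 µM, at least 11.3-fold. In Th1 cells it went from 6.76 to 10.79 with 1 µM and from 6.56 to 7.27 with 10 µM. The value of 13.83 was above every other array for this gene, the DMSO control (10.7) included. In reactivated Th2 cells 1 µM therefore gave 3.13 more Cy3 and 3.1 more ratio than DMSO, which ranked Cxcl10 58th of 12983 genes by Cy3 and 49th by ratio. With the spike-in shift the gap was smaller, with ratios of 7.05 at 1 µM and 5.22 with DMSO, and 3.23 at 10 µM. At least a 2-fold higher value was seen for 13.8% of genes by Cy3 and 11.7% by ratio on that pair of arrays. The pair has no replicate, and the time of its DMSO array is unclear. At 10 µM the same difference was -0.85 in Cy3, and in reactivated Th1 cells it was -1.02 at 1 µM and -4.54 at 10 µM.

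Over the 4 flavopiridol pairs together, 0 of 5 ligands tested were called on reactivation by either measure in limma, where 0.128% of 10933 genes were called by ratio and 0.00915% by Cy3. At an unadjusted p below 0.05 there were 3 members by ratio and 2 by Cy3, and 2489 and 2554 genes. The calls by ratio turn on the setting. With the spike-in shift Ccl4 (4.05, adjusted p = 2.86e-06) and Cxcl10 (4.2, 1.34e-06) were called. Without the Th1 pair at 10 µM Cxcl10 was (5.23, 0.0293). By Cy3 the change was 3.71 ± 0.84 for Ccl4 (adjusted p = 0.101), 3.93 ± 0.95 for Cxcl10 (0.108), 0.36 ± 0.31 for Ccl3 (0.502), -0.1 ± 0.07 for Xcl1 (0.41) and -0.23 ± 0.11 for Ccl5 (0.269). By ratio Ccl4 gave 4 ± 0.89 and Cxcl10 4.15 ± 0.91 (both 0.121). A test of the dose, chosen after the data were seen, compared these changes at 1 and 10 µM. By ratio that of Ccl4 was 4.48 ± 0.44 larger at 1 µM (adjusted p = 0.0365), the 1 call among 5 ligands where 0.146% of genes were called, and by Cy3 it was 4.12 ± 0.42 larger (0.0727, with 0 of 5 ligands and 0.00915% of genes called, and 3 members at an unadjusted p below 0.05). Ccl4 and Cxcl10 were at background in Cy3 on both unstimulated Th2 drug arrays, and Cy5 of Ccl4 was not well above background on any of the 8 drug arrays, so these sizes rest in part on dim values. For Cxcl10 the dose difference was 3.54 ± 1.22 by ratio (0.396) and 3.64 ± 1.28 by Cy3 (0.417).

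Most other chemokine ligands were too dim to be tested. Of 34 further ligand genes, 32 were on the array and 10 entered the reactivation fit without drug, where by ratio 5 were called higher and 2 lower, with a median of 0.47 against -0.05 for all genes and 50.9% of all genes called. Ccl9, which lies beside Ccl5, changed by 3.9 ± 0.68 (adjusted p = 0.00419), the neutrophil attractant Cxcl2 by 1.53 ± 0.33 (0.00976) and Ccl22, a ligand of Ccr4, by 1.31 ± 0.22 (0.00346). Ccl25 (-0.88 ± 0.19, 0.00938) fell, and Cx3cl1, the membrane-bound fractalkine, rose (0.74 ± 0.16, 0.00975). By Cy3 4 were called higher and 1 lower, near the 51.1% of all genes called, with 4.11 ± 0.86 for Ccl9 (0.0126), 1.26 ± 0.29 for Cxcl2 (0.0171), 1.16 ± 0.22 for Ccl22 (0.00976), 0.68 ± 0.16 for Cx3cl1 (0.0174) and -0.82 ± 0.2 for Ccl25 (0.0196). With 500 nM JQ1, 2 of 15 were higher and 2 lower, with a median of -0.12 against -0.07 for all genes, a share below the 47.5% of all genes called. Cx3cl1 rose by 1.04 ± 0.21 (0.00223) and Ccl21b by 0.41 ± 0.08 (0.00148), and Ccl9 (-0.88 ± 0.3, 0.0326) and Ccl27a (-0.69 ± 0.11, 0.000515) fell. The same 4 were called in the same directions by Cy3. With 10 µM flavopiridol 2 of 10 were higher, Ccl21b (1.17 ± 0.14, 0.00023) and Ccl19 (0.77 ± 0.14, 0.00238), and 0 lower, with a median of -0.05 against -0.22 for all genes, and by Cy3 the same 2 were called (1.95 ± 0.12 and 0.96 ± 0.12). That share too was below those of all genes, 49.0% by ratio and 50.0% by Cy3. Between Th1 and Th2 cells 1 of 15 was called higher and 1 lower by both measures (28.7% and 29.3% of all genes), and for the dependence of that difference on reactivation 3 were called higher and 5 lower by ratio and 3 and 3 by Cy3 (20.0% and 19.1%).

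Among receptors of the ligands, Ccr1, which binds Ccl3 and Ccl5, and Xcr1, which binds Xcl1, were above background on 0 arrays. Ccr3, a receptor of Ccl5, changed on reactivation without drug by 0.57 ± 0.14 by ratio (adjusted p = 0.0165) and was not called by Cy3. Cxcr3, the receptor of Cxcl10, fell by 2.57 with 500 nM JQ1 by ratio (SE 0.44, adjusted p = 0.000845) and by 2.71 by Cy3 (SE 0.47, 0.000985), where 47.5% and 50.8% of all genes were called. With 10 µM flavopiridol it changed by -1.91 ± 0.64 by Cy3 (0.0355) and by -1.7 ± 0.65 by ratio (0.0571). Ccr3 changed with 500 nM JQ1 by -0.24 ± 0.08 by Cy3 (0.036) and by -0.25 ± 0.11 by ratio (0.0848).

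Genes whose Cy3 profile over the 24 arrays lay nearest to each ligand were found among 13352 genes, by the mean absolute difference after each gene's own mean was subtracted. For Ccl1 these were Il2 (0.76), Il3 (0.91) and Inhba (1.05), the first 2 of them cytokines of stimulated T cells. For Ccl3 they were Xcl1 (1.04), Crtam (1.19) and Ccl5 (1.21), and for Xcl1 they were Crtam (0.81), Ccl5 (0.85) and Plek (0.89). Ccl4 had Ccl3 (1.23), Rgs16 (1.45) and Crtam (1.46), and Ccl5 had Plek (0.73), Tubb6 (0.77) and Gem (0.83). Xcl1 was thus the nearest gene to Ccl3, and Ccl5 was among the 3 nearest of both, while Cxcl10 had 3 other genes, Cd69 (0.73), Tnfaip3 (0.97) and Jun (1.01). The points share arrays and depth, and no test was made.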

How the data were processed

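Scanner files of 24 arrays were analysed, each holding 1 sample. The authors scanned the arrays with Agilent Feature Extraction 10.7.1.1, and the files as deposited give spot and background intensity (pixel medians) in Cy3 and Cy5. They also give a log10 ratio of Cy5 over Cy3 that, per the file headers, was background-subtracted and dye-normalised by the software. The authors' deposited table holds log2 ratios of sample over naive cells, whose centring and normalisation are not given in the sources used here. That table and the scanner ratio were used as alternatives only.

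Intensities were corrected by normexp (offset 50) and loess in limma 3.58.1 (R 4.3.3), and control and outlier spots were left out. Cy3 alone was taken after loess and Aquantile normalisation. These steps use the intensities of both dyes, so this value is not wholly independent of Cy5. Each gene was read by its brightest probe if well above background in Cy3 on at least 3 arrays of a fit. Fits used lmFit and eBayes with the pair or context as a block, or for the naive comparison a mean against 0, and p-values were adjusted by Benjamini-Hochberg over all genes tested, with calls at 0.05. Drug fits held both doses, so 12 arrays entered each. A fold against a spot at background is a lower bound, taken against the array's lowest signal among probes well above background or the spot's own signal, whichever was higher.

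The 6 ligands were described in every comparison, further ligands and receptors where called on reactivation without drug, with 500 nM JQ1 or with 10 µM flavopiridol (at most 5 per list by size), and the 3 genes nearest in Cy3 profile. Members, lists and tests were chosen with earlier results of these data known. The fits were tested on simulated data. Alternatives changed the channel, normalisation, scaling, background, filter, probe rule, slide, block, dose and pairs left out. Precision is set by how few arrays there are, 1 for each condition. The result of 1 receptor gene on the receptor list is not reported here.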

Additional observations from a re-analysis of the deposited data

Results flagged for a closer look

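Among the 6 ligands, 25 differences between groups in the size of an effect passed an adjusted p of 0.05 in limma, 13 by log2 ratio and 12 by Cy3 alone. They include both values of Ccl1 under flavopiridol, where only its DMSO arrays were above background. In the same fits 10.1% (JQ1), 15.9% (flavopiridol) and 20.0% (Th1 against Th2) of all genes were called by ratio and 9.03%, 15.3% and 19.1% by Cy3, and 0.146% by ratio for the dose of flavopiridol. The effect of 500 nM JQ1 in reactivated minus that in unstimulated cells was 1.75 for Ccl1, 0.92 for Ccl3 and 1.07 for Ccl5 by ratio. By Cy3 it was -2.17 for Ccl1, -1.76 for Xcl1 and 1.17 for Ccl5, where Ccl5 was above background on every array. Ccl1 with 500 nM for 6 hr was at background in unstimulated cells of both lineages and Xcl1 in those of Th2 cells, so their fall there is only a lower bound, and the sizes for Ccl1 and Xcl1 rest on dim values. Cy5 of Ccl1 was between 5.92 and 15.1 over the arrays. The log2 ratio equals normalised Cy3 minus normalised Cy5 on each array, so the values of Ccl1 by ratio and by Cy3 differ by the fitted change in Cy5. Why Cy5 changed was not tested.

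The effect of 10 µM flavopiridol in reactivated minus that in unstimulated cells was -1.05 for Ccl1, -4.54 for Ccl4, -2.7 for Ccl5 and -3.31 for Xcl1 by ratio. By Cy3 it was -8.39 for Ccl1, -6.84 for Ccl3, -6.15 for Ccl4, -3.76 for Ccl5 and -5.03 for Xcl1. All drug arrays of Ccl1, both Th2 drug arrays of Ccl3 and Xcl1 and the unstimulated Th2 drug array of Ccl4 were at background, so the values of Ccl1, Ccl3 and Xcl1 are neither sizes nor bounds of a drug effect. Drug and slide cannot be told apart within a context.

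The Th1 minus Th2 difference in reactivated minus that in unstimulated cells was -1 for Ccl3, -1.59 for Ccl4, -0.56 for Ccl5, 0.96 for Xcl1 and -2.41 for Cxcl10 by ratio. By Cy3 it was 3.9 for Ccl3, 0.75 for Ccl5, 2.83 for Xcl1 and -2.36 for Cxcl10. In the JQ1 pairs behind these values lineage and slide cannot be told apart. Under flavopiridol the change of Ccl4 on reactivation was 4.48 larger at 1 µM than at 10 µM by ratio, a test chosen after the data were seen, with Cy3 at background on both unstimulated Th2 drug arrays.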

How the results depend on the processing

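Changes of single ligands kept their direction and side of the threshold in 489 of the results recomputed under other settings, lost their call in 85, gained one in 30 and reversed in 28; with 1 pair or context left out the numbers were 202, 34, 11 and 6. The cause was not tested for any of them. Every label gives replicate 1, so replicate numbers pair no samples, and the blocks of the tests join arrays of like condition. Shifting arrays by spike-in probes moved the median of all genes from -0.05 to 0.22 (reactivation), from -0.06 to -0.5 (reactivation with JQ1), from -0.07 to -0.6 (JQ1), from -0.22 to -0.96 (flavopiridol), from -0.01 to -0.13 (Th1 against Th2) and from 0.08 to 0.38 (naive). Median centring moved it from -0.07 to -0.28 (JQ1), from -0.22 to -1.06 (flavopiridol) and from 0.08 to -0.36 (naive).

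The number of ligands called for 500 nM JQ1, 3 by ratio, was 5 by Cy3 or in the deposited table, 6 with median centring or the spike-in shift, 0 with the scanner ratio, without blocks or at the lower dose (0 by Cy3 too), and 1 on a shared slide. Of all genes 47.5% were called by ratio, 50.7% with median centring, 32.9% with the spike-in shift, 46.8% with the scanner ratio, 51% in the deposited table, 6.99% without blocks, 0.302% at the lower dose and 34.1% on a shared slide. For its difference between states (3) it was 1 with the spike-in shift or the higher dose alone and 0 with the scanner ratio (82%, 2.08% and 2.97% of all genes, from 10.1%). For 10 µM flavopiridol (5) it was 3 with the scanner ratio or the higher dose alone, 2 with slide as a random block and 1 without blocks (49.3%, 36.9%, 33.7% and 41.2% of all genes, from 49.0%), and by Cy3 3 with quantile normalisation and 1 with the slide block. For its difference between states (4) it was 2 with median centring or the higher dose alone, 1 with the spike-in shift and 0 with the scanner ratio (7.56%, 4.67%, 1.13% and 5.29%, from 15.9%). For Th1 against Th2 (5) it was 2 with the scanner ratio and 0 without blocks (27.4% and 3.41%, from 28.7%), and for its difference between states (5) it was 2 with the scanner ratio and 3 in the deposited table (11.8% and 18.3%, from 20.0%). For reactivation it was 3 with the scanner ratio (47% from 50.9%), and with flavopiridol 2 after the spike-in shift (4.38% from 0.128%). For 24 against 6 hr (1) it was 6 by Cy3, 5 in the deposited table, and 0 with median centring, the spike-in shift, the scanner ratio, the mean of all probes or no filter (12% of all genes in the deposited table and 0.0558% to 3.88% in the last 5, from 5.07%). For the dose difference under flavopiridol (1) it was 2 with the spike-in shift (1.52% from 0.146%) and 0 by Cy3, without background correction, with the scanner ratio or without the filter.

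Reversed values were, for Xcl1 on reactivation with flavopiridol, 0.06 with median centring, 0.01 with the spike-in shift and 0.23 with the scanner ratio. For the JQ1 difference between states they were -2.17 and -0.55 by Cy3 and -2.09 and -0.55 in the deposited table for Ccl1 and Ccl3, and -0.27, -0.41, -0.13 and -0.7 with the spike-in shift for Ccl3, Ccl4, Ccl5 and Cxcl10. For Xcl1 they were 0.07 without background correction, 0.9 with the scanner ratio, and from -0.91 to 0.05 with 1 context left out, which gave Cxcl10 from -0.26 to 1.25, the reversals coming without the reactivated Th2 context. For the flavopiridol difference between states Cxcl10 ran from -1.07 (without the reactivated Th2 context) to 3.18, with -0.62 without the unstimulated Th1 context. For Th1 against Th2 Ccl1 gave 0.13 with the scanner ratio and from -0.16 to 0 with 1 pair left out, 0 without the unstimulated 50 nM JQ1 pair. For its difference between states Cy3 gave -0.18, 3.9, 0.1 and 0.75 for Ccl1, Ccl3, Ccl4 and Ccl5, the deposited table -0.22, 3.6 and 0.63 for Ccl1, Ccl3 and Ccl5, and for Ccl1 median centring gave 0, the spike-in shift -0.28 and the scanner ratio -0.17, which gave -0.33 for Xcl1. The deposited table gave -1.5 for Ccl1 against naive cells. For 24 against 6 hr the scanner ratio gave -0.2 and -0.18 for Ccl3 and Ccl4, and Ccl4 ran from -0.06 (without the unstimulated DMSO pair) to 0.39 with 1 pair left out.

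With 1 pair or context left out, the calls by ratio and by Cy3 were 5 and 5 for reactivation, 5 to 6 and 4 to 6 with JQ1, 0 to 1 and 0 with flavopiridol, 3 to 6 and 5 for JQ1, 2 to 3 and 1 to 2 for its difference between states, 2 to 4 and 1 to 5 for flavopiridol, 0 to 4 and 0 to 5 for its difference between states, 5 and 5 to 6 for Th1 against Th2, 4 to 5 and 3 to 4 for its difference between states, 0 to 2 and 0 to 5 for time, 1 to 3 and 1 to 2 for the dose difference, and 0 for the lineage differences of both drugs by ratio. The share of all genes called is not given for these reduced fits, nor for the Cy3 fits with quantile normalisation or the slide block. Their counts can therefore not be set against the whole array. Signal over background limits Ccl1, above background in Cy3 on 14 arrays, and Xcl1, on 19.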
